A study of Drosophila melanogaster with 4 samples.

Results

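Genes of the mitochondrial respiratory chain were examined in RNA from fly heads, complex by complex. They were chosen by their FlyBase symbols (ND-, Sdh, UQCR-, COX followed by a number, ATPsyn, mt:ND, mt:Co, mt:Cyt and mt:ATPase), with earlier results of these data known. Of the 15682 genes in the deposited table, 99 were members. These were 62 nuclear genes of subunits, 13 genes encoded in the mitochondrial genome, 23 nuclear paralogues (a subunit's symbol followed by L) and the assembly factor gene Sdhaf3. Another 2 genes whose symbols fit, ND-30 and COX7CL, were not analysed here.

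Poly(A) RNA was measured in 4 libraries, 2 from heads of Drosophila melanogaster expressing MJDtr-78Q and 2 from heads of w1118 flies without it. MJDtr-78Q is a shortened human ataxin-3 (the MJD protein) whose glutamine repeat is expanded, used to model Machado-Joseph disease, and w1118 is a white-eyed laboratory strain. The labels name no driver, promoter, age or sex, and do not state that libraries came from separate animals, so the p-values cover only the spread among these 4 libraries, possibly a technical one. The series concerns Golgi outposts in dendrites, and respiratory genes are not named in its title or design.

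The respiratory chain lies in the inner mitochondrial membrane. Complexes I and II feed electrons from NADH and succinate into ubiquinone, complex III passes them to cytochrome c, and complex IV passes them to oxygen. Complexes I, III and IV pump protons, and complex V, the ATP synthase, uses the proton gradient to make ATP. Complex II is encoded by nuclear genes alone, while the other complexes combine nuclear and mitochondrial gene products, so their assembly draws on both genomes. Neurons, photoreceptors and muscle are known for heavy use of this pathway.

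Levels are log2 of a normalised count plus 1, after the 4 libraries were quantile normalised together, and differences are MJDtr-78Q minus w1118. Back-transformed totals as deposited were 3111583 and 3111393 in MJDtr-78Q libraries and 7147867 and 7147717 in w1118 libraries, made nearly equal within each group by the authors' scaling. Of all genes, 9049 averaged at least 10 normalised counts and were tested with limma, n = 2 libraries per group. The median of all tested genes was -0.02. In bulk heads, fewer cells of a type and less RNA per cell cannot be told apart.

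The filter kept 73 of the 99 members. They were 61 nuclear subunit genes, 10 mitochondrial genes, the paralogue COX7AL2 and Sdhaf3. No member passed at an adjusted p of 0.05, against a background of 0% of all tested genes, whose lowest limma adjusted p was 0.512. At an unadjusted limma p under 0.05 there were 0 of 73 members, against 5.88% of all tested genes. The lowest unadjusted limma p of any member was 0.164, for mt:ND2, and the limma adjusted p was 1 to 3 decimals for every tested member. With the replicate number as a block, 0 members passed, against 4.28% of all tested genes.

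The differences of the members were small and mostly below 0. Their median was -0.18, and 65 of 73 (89.0%) lay below 0, against 53.4% of all tested genes. Only 2 members, mt:ND2 and SdhA, had both MJDtr-78Q libraries below both w1118 libraries, which is 2.74% of the members against 15.5% of all tested genes. No member had both MJDtr-78Q libraries above, against 14% of all tested genes. In either direction, 29.5% of all tested genes had groups that did not overlap. The 95% interval of the difference lay within 2-fold either way for 22 of 73 members (30.1%), against 43.9% of all tested genes, so for the other members these libraries do not bound the difference to 2-fold.

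The 2 MJDtr-78Q libraries lay far apart for these genes, on either side of the w1118 libraries. MJDtr-78Q library 1 was the lowest of the 4 for 69 of 73 members (94.5%), against 41.0% of all tested genes. MJDtr-78Q library 2 was the highest for 50 of 73 (68.5%), against 29.4% of all tested genes. Both held for 49 members (67.1%), against 18.3% of all tested genes. Library 2 exceeded library 1 by a median of 0.96 in MJDtr-78Q and 0.44 in w1118 over the members, while the same medians over all tested genes were 0.07 and 0.02. Regardless of sign, the median distance over all tested genes was also wider in MJDtr-78Q, at 0.52 against 0.24 in w1118. In 73 of 73 members the distance between the MJDtr-78Q libraries was wider than that between the w1118 libraries. The share of all tested genes with this order was not computed.

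**Figure D1:**
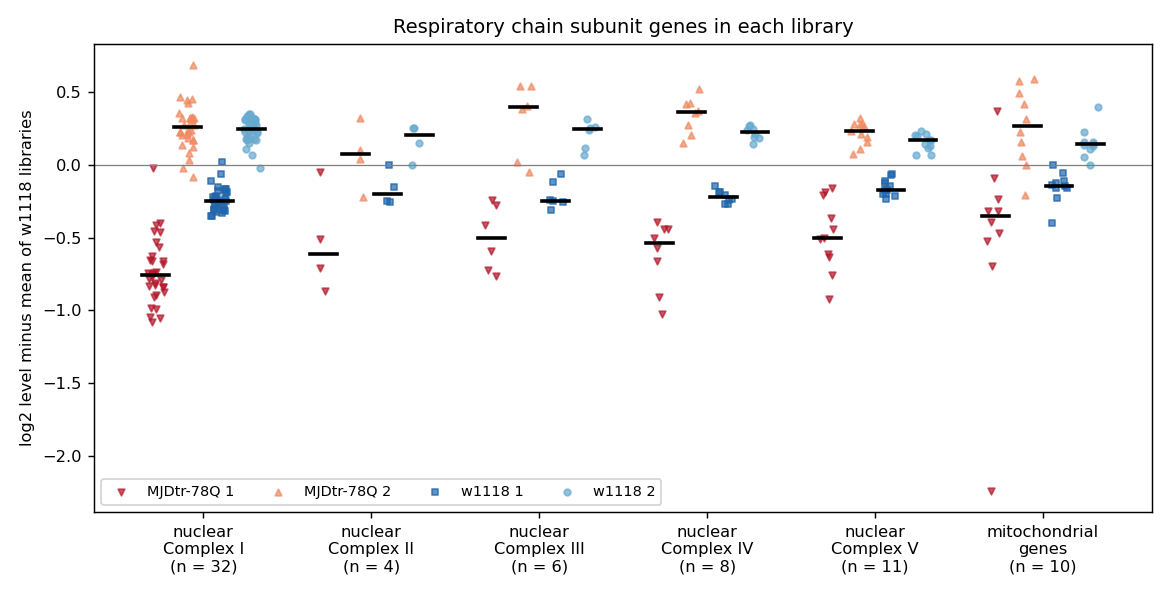
Level of each tested subunit gene in each library minus the mean of its w1118 libraries (vertical axis, log2), by nuclear complex and for the mitochondrial genes (horizontal axis). Each point is a gene in 1 library and each black bar the median of the library. MJDtr-78Q library 1 sits lowest and library 2 near or above the w1118 libraries, in complex I as in complex V.

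The direction of the complex medians depended on which library was left out. Relative to the median of all tested genes, the median difference of nuclear complex I was -0.23, and it was 0.27 when MJDtr-78Q library 1 was left out and -0.73 when library 2 of that genotype was left out. The medians of complexes II, III, IV and V were -0.23, -0.08, -0.09 and -0.09 with all libraries. Without MJDtr-78Q library 1 they were 0.08, 0.41, 0.38 and 0.24, and without MJDtr-78Q library 2 they were -0.58, -0.47, -0.51 and -0.47. Leaving out w1118 library 2 also put complexes I, III, IV and V at or above 0, at 0.01, 0.15, 0.11 and 0.05.

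Complex I oxidises NADH and is the largest of the complexes. Its 33 nuclear subunit genes gave 32 tested, with a median difference of -0.25 and 31 of 32 below 0. The library medians were 8.99 and 10.19 in MJDtr-78Q and 9.65 and 10.18 in w1118. The w1118 libraries thus fell between the MJDtr-78Q libraries, and none of the 32 genes had groups that did not overlap.

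Among the nuclear core subunits, which lie in the peripheral arm, ND-75 holds iron-sulfur clusters and its transcript is the longest of the 6 tested. ND-75 was at 11.56 and 11.49 in MJDtr-78Q libraries and 11.60 and 11.56 in w1118 libraries, a difference of -0.05 (SE 0.22). Its 4 values lay closer together than those of any other core subunit, and its 95% interval of -0.61 to 0.50 was the narrowest of all tested members. ND-51, the flavoprotein that takes electrons from NADH, was at 10.92 and 11.31 in MJDtr-78Q libraries and 11.22 and 11.44 in w1118 libraries, a difference of -0.22 (SE 0.26). Its MJDtr-78Q library 1 was the lowest, and the groups overlapped. ND-49, a core subunit next to the ubiquinone site in the bovine and human enzymes, was at 10.85 and 11.28 in MJDtr-78Q libraries and 11.18 and 11.31 in w1118 libraries. Its difference of -0.18 (SE 0.26) was smaller than its standard error.

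The iron-sulfur subunits with shorter transcripts showed wider gaps. ND-24 was at 9.24 and 10.21 in MJDtr-78Q libraries and 9.73 and 10.23 in w1118 libraries. ND-23 was at 9.54 and 10.54 in MJDtr-78Q libraries and 10.10 and 10.55 in w1118 libraries. ND-20 was at 9.70 and 10.85 in MJDtr-78Q libraries and 10.43 and 10.80 in w1118 libraries. In each of these 3 genes library 1 of a genotype was below its library 2, and the groups overlapped, with differences of -0.26 (SE 0.41), -0.29 (SE 0.42) and -0.34 (SE 0.44). As a group the 6 core genes had a median difference of -0.24 and a median gap between MJDtr-78Q libraries of 0.70, with a median exonic length of 1463 bases. The 26 tested accessory genes had a median difference of -0.25, a gap of 1.07 and a median length of 787.5 bases.

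The accessory subunits surround the core. ND-15 was at 9.01 and 10.13 in MJDtr-78Q libraries and 9.77 and 10.33 in w1118 libraries, a difference of -0.48 (SE 0.46), the lowest of the nuclear subunits. The groups overlapped, and its listed span on 2L, 114726 to 156030, overlaps other listed genes, so reads could be shared. Such an overlap with another listed gene was found for 33 of the 73 tested members, SdhA and mt:ND2 among them. ND-B14.7, a membrane-arm subunit, was at 9.50 and 10.69 in MJDtr-78Q libraries and 10.32 and 10.79 in w1118 libraries, a difference of -0.46 (SE 0.46). ND-B14 was at 8.65 and 9.79 in MJDtr-78Q libraries and 8.83 and 9.38 in w1118 libraries, a difference of 0.11 (SE 0.46), the only one above 0 in nuclear complex I. Its 2 MJDtr-78Q libraries were the lowest and the highest of the 4. ND-B8 stayed under the filter, at 1.58 and 1 in MJDtr-78Q libraries and 1.29 and 0 in w1118 libraries on the deposited scale.

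Complex II, succinate dehydrogenase, also serves the TCA cycle. All 4 of its subunit genes were tested and all lay below 0, with a median of -0.25. SdhA, the flavoprotein that oxidises succinate, was at 11.12 and 10.94 in MJDtr-78Q libraries and 11.16 and 11.16 in w1118 libraries, a difference of -0.13 (SE 0.22). Its groups did not overlap, yet the higher MJDtr-78Q library was close to the w1118 libraries, and it did not pass the test. SdhB, the iron-sulfur subunit, was at 10.24 and 10.79 in MJDtr-78Q libraries and 10.60 and 10.90 in w1118 libraries. The membrane anchors SdhC and SdhD overlapped between groups as well. SdhC was at 9.47 and 10.29 in MJDtr-78Q libraries and 9.93 and 10.43 in w1118 libraries, and SdhD at 9.23 and 10.42 in MJDtr-78Q libraries and 9.84 and 10.35 in w1118 libraries. Differences were -0.23 (SE 0.30), -0.30 (SE 0.38) and -0.27 (SE 0.47) for SdhB, SdhC and SdhD. Sdhaf3, which helps the iron-sulfur subunit mature, was far lower in level, at 4.89 and 6.18 in MJDtr-78Q libraries and 5.73 and 6.68 in w1118 libraries. Its difference was -0.67 (SE 0.57), with overlapping groups.

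Complex III passes electrons from ubiquinol to cytochrome c. Its 6 tested genes had a median difference of -0.10 and all lay below 0, the highest being UQCR-Q. The large core proteins are encoded by UQCR-C1 and UQCR-C2. UQCR-C1 was at 12.01 and 12.24 in MJDtr-78Q libraries and 12.22 and 12.35 in w1118 libraries, a difference of -0.16 (SE 0.23). UQCR-C2 was at 11.43 and 11.69 in MJDtr-78Q libraries and 11.56 and 11.79 in w1118 libraries, a difference of -0.11 (SE 0.24). In both genes MJDtr-78Q library 1 was the lowest and w1118 library 2 the highest. UQCR-14, a small subunit with a short transcript, was at 10.34 and 11.48 in MJDtr-78Q libraries and 10.85 and 11.35 in w1118 libraries, a difference of -0.19 (SE 0.46). Its MJDtr-78Q libraries lay on either side of the w1118 libraries.

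Complex IV, cytochrome c oxidase, reduces oxygen. Its 8 tested nuclear genes had a median difference of -0.12, with 1 above 0. COX4, a regulatory subunit in mammals, was at 11.38 and 12.03 in MJDtr-78Q libraries and 11.74 and 12.03 in w1118 libraries. COX5A was at 11.14 and 11.79 in MJDtr-78Q libraries and 11.40 and 11.77 in w1118 libraries. These had differences of -0.18 (SE 0.31) and -0.12 (SE 0.32), each smaller than its standard error. COX5B, a zinc-binding subunit, was at 9.78 and 10.74 in MJDtr-78Q libraries and 9.98 and 10.45 in w1118 libraries, a difference of 0.04 (SE 0.41), the gene of the complex above 0. COX6B, on the intermembrane side, was at 10.50 and 11.17 in MJDtr-78Q libraries and 10.71 and 11.08 in w1118 libraries, a difference of -0.06 (SE 0.33). COX7A had the lowest difference of the complex, -0.33 (SE 0.52), with 10.05 and 11.42 in MJDtr-78Q libraries against 10.82 and 11.31 in w1118 libraries. In all 8 genes MJDtr-78Q library 1 was the lowest and MJDtr-78Q library 2 the highest.

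Complex V, the ATP synthase, had the highest median level per kilobase of the nuclear complexes. Its 11 tested genes had a median difference of -0.11, with 1 above 0. ATPsynbeta, the catalytic subunit, was at 13.66 and 13.96 in MJDtr-78Q libraries and 13.78 and 13.92 in w1118 libraries, a difference of -0.04 (SE 0.23) with a 95% interval of -0.62 to 0.55. ATPsynC, the proton-carrying ring subunit, was at 13.28 and 13.71 in MJDtr-78Q libraries and 13.33 and 13.55 in w1118 libraries, a difference of 0.05 (SE 0.26). Both are long transcripts, and both had MJDtr-78Q libraries on either side of the w1118 libraries. ATPsyngamma, the rotating central stalk, was at 11.61 and 11.89 in MJDtr-78Q libraries and 11.75 and 11.88 in w1118 libraries, a difference of -0.07 (SE 0.23). ATPsynO, which joins the peripheral stalk to the catalytic head, was at 11.05 and 11.76 in MJDtr-78Q libraries and 11.42 and 11.71 in w1118 libraries, a difference of -0.16 (SE 0.32). The lowest difference belonged to ATPsynE, a small membrane subunit, at -0.32 (SE 0.46), with 10.17 and 11.38 in MJDtr-78Q libraries and 10.89 and 11.30 in w1118 libraries. ATPsynO and ATPsynE overlapped between the groups, and MJDtr-78Q library 1 was the lowest in each.

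**Figure D2:**
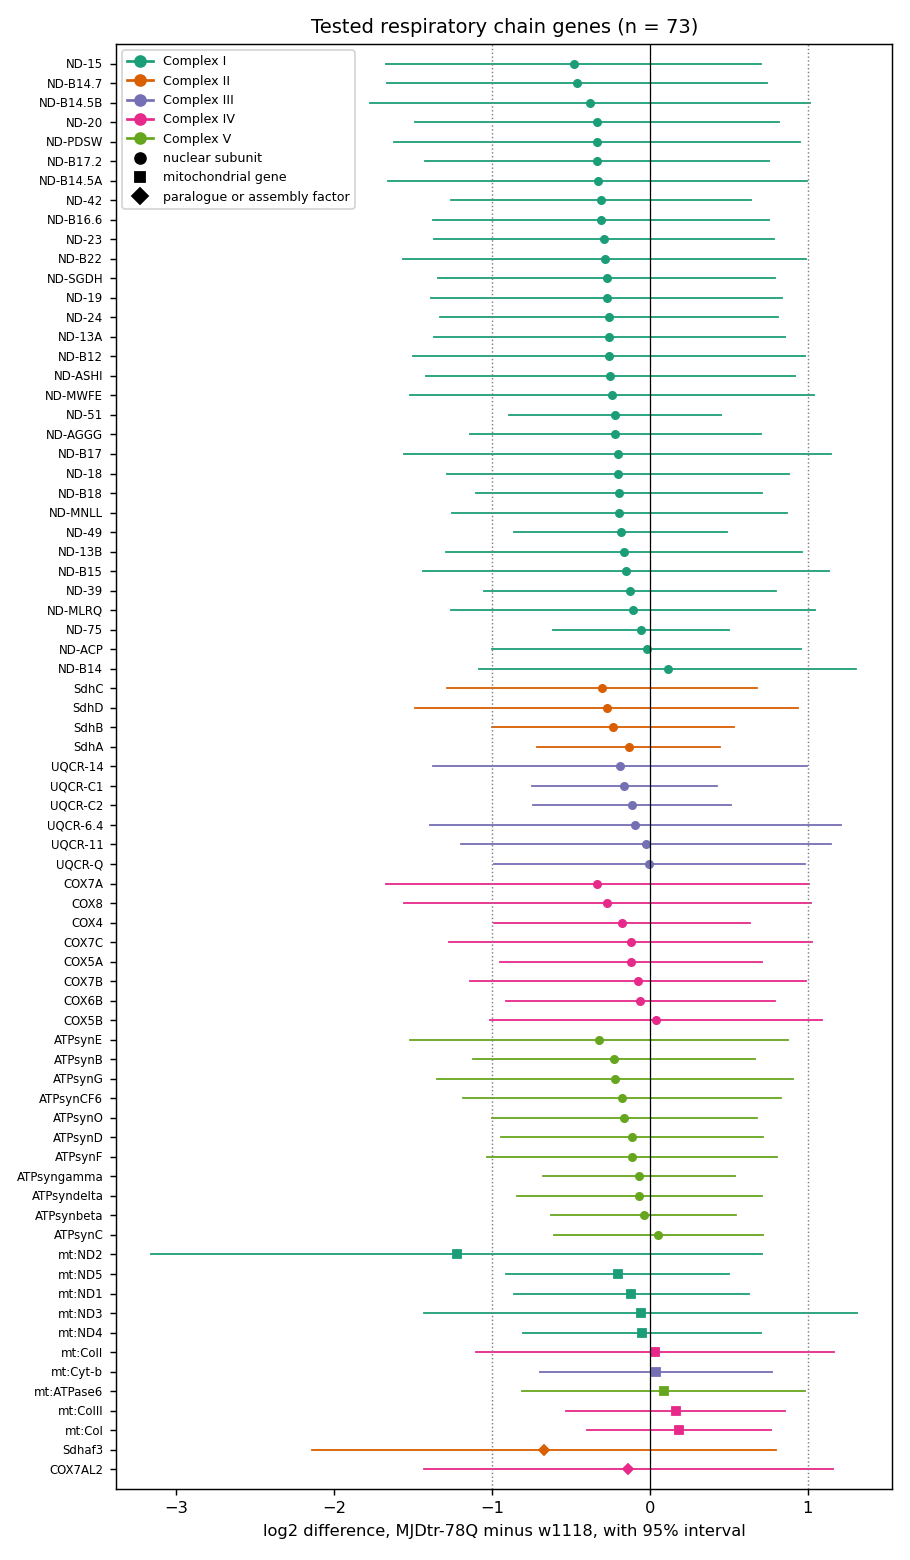
Difference of each of the 73 tested members (horizontal axis, log2, MJDtr-78Q minus w1118) with its 95% interval from limma, ordered within each nuclear complex, then the mitochondrial genes, then Sdhaf3 and COX7AL2. Dotted lines mark 2-fold. Every interval covers 0, and mt:ND2 has the widest.

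The mitochondrial genome is transcribed into long precursors that are cut into single mRNAs and polyadenylated. Of its 13 coding genes 10 were tested, with a median difference of -0.01 and 5 above and 5 below 0. The library medians were 12.11 and 12.79 in MJDtr-78Q and 12.27 and 12.58 in w1118, so here too the w1118 libraries fell between the MJDtr-78Q libraries. The interval lay within 2-fold for 7 of the 10.

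The complex IV genes encode the catalytic core of the oxidase and, per kilobase, had the highest median level of any group of members (21472 in MJDtr-78Q and 18737 in w1118). mt:CoI was at 15.18 and 14.81 in MJDtr-78Q libraries and 14.81 and 14.81 in w1118 libraries, a difference of 0.18 (SE 0.23). It ranked 4 and 5 among all genes in MJDtr-78Q libraries and 5 and 5 in w1118 libraries, and after quantile normalisation its values follow from these ranks. mt:CoII was at 12.58 and 13.69 in MJDtr-78Q libraries and 12.87 and 13.33 in w1118 libraries, a difference of 0.03 (SE 0.44). mt:CoIII was at 13.96 and 14.46 in MJDtr-78Q libraries and 13.92 and 14.17 in w1118 libraries, a difference of 0.16 (SE 0.27). MJDtr-78Q library 1 was not the lowest for mt:CoI and mt:CoIII, which among the other tested members held for ND-75 and SdhA alone. mt:Cyt-b, the only mitochondrial subunit of complex III, was at 13.47 and 14.02 in MJDtr-78Q libraries and 13.55 and 13.86 in w1118 libraries, a difference of 0.04 (SE 0.28). mt:ATPase6, the proton channel subunit of complex V, was at 12.15 and 12.96 in MJDtr-78Q libraries and 12.32 and 12.61 in w1118 libraries, a difference of 0.09 (SE 0.35).

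The tested complex I genes of the mitochondrial genome, which form its proton-pumping membrane arm, all lay below 0, with a median of -0.12 over 5 genes. mt:ND1 was at 11.10 and 11.65 in MJDtr-78Q libraries and 11.38 and 11.60 in w1118 libraries. mt:ND4 was at 12.07 and 12.61 in MJDtr-78Q libraries and 12.23 and 12.54 in w1118 libraries. mt:ND5 was at 11.65 and 12.17 in MJDtr-78Q libraries and 12.06 and 12.17 in w1118 libraries. These 3 genes are read from the minus strand, and their differences of -0.12 (SE 0.29), -0.05 (SE 0.29) and -0.20 (SE 0.27) were each smaller than their standard errors. mt:ND3, on the plus strand, was at 8.80 and 10.07 in MJDtr-78Q libraries and 9.10 and 9.89 in w1118 libraries, a difference of -0.06 (SE 0.53). mt:ND2, at positions 240 to 1265 of the mitochondrial genome in the deposited table, was far lower than its neighbours, at 2.71 and 4.73 in MJDtr-78Q libraries and 4.81 and 5.08 in w1118 libraries. Its difference was -1.22 (SE 0.75), with an interval of -3.16 to 0.71. The groups did not overlap, but MJDtr-78Q library 2 was close to w1118 library 1.

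Beside mt:ND2, the other low mitochondrial genes fell under the filter. On the deposited scale mt:ND4L was at 0 and 1.58 in MJDtr-78Q libraries and 2.08 and 1.95 in w1118 libraries. mt:ND6 was at 1.58 and 1 in MJDtr-78Q libraries and 3.50 and 3.25 in w1118 libraries, and mt:ATPase8 at 0 and 1.58 in MJDtr-78Q libraries and 1.5 and 1.95 in w1118 libraries. The deposited scale puts most genes lower in MJDtr-78Q libraries, by a median of -1.23 over all tested genes, so these values are not compared between groups. mt:ATPase8 (3907 to 4068) overlaps mt:ATPase6 (4062 to 4736), and mt:ND4 (8206 to 9544) meets mt:ND4L (9544 to 9834) at a shared base. In flies these pairs are known to share a mature mRNA, so the split of reads within each pair is uncertain.

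**Figure D3:**
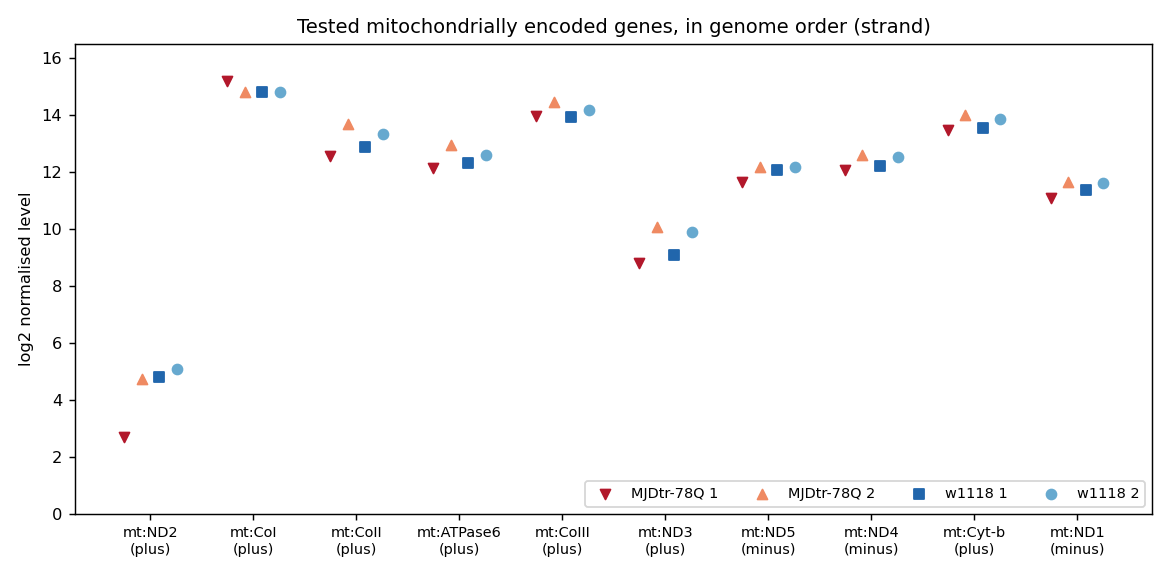
Level of the 10 tested mitochondrial genes in each library (vertical axis, log2 normalised level), in genome order with the strand under each symbol. mt:CoI and mt:CoIII are the most abundant and mt:ND2 the least, and the libraries of both genotypes overlap for every gene except mt:ND2.

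Nuclear and mitochondrial genes were then set against each other within each library, a contrast that no scaling constant alters. The mitochondrial median exceeded the nuclear subunit median by 2.33 and 1.99 in MJDtr-78Q libraries and by 1.99 and 1.85 in w1118 libraries, as log2 differences. The groups averaged 2.16 ± 0.24 and 1.92 ± 0.10 (SD, n = 2 each) and differed by 0.25, about the spread within MJDtr-78Q. MJDtr-78Q library 2 and w1118 library 1 were both at 1.99, and without MJDtr-78Q library 1 the difference was 0.08, against 0.43 without MJDtr-78Q library 2. With 2 libraries per group an exact permutation test could give no p below 1 in 3, so none was run.

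By complex the same contrast was 2.11 and 1.46 in MJDtr-78Q against 1.73 and 1.43 in w1118 for complex I. It was 3.30 and 2.85 in MJDtr-78Q against 3.04 and 2.84 in w1118 for complex III. Complex IV had 3.87 and 3.31 in MJDtr-78Q libraries and 3.31 and 3.17 in w1118 libraries. In these 3 complexes the groups overlapped. Complex V, with mt:ATPase6 as its only tested mitochondrial gene, had 1.16 and 1.23 in MJDtr-78Q libraries and 0.98 and 0.93 in w1118 libraries, without overlap.

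Levels between genes can be compared per kilobase of exon. Median levels in normalised counts per kilobase were, for complex I, 1056 in MJDtr-78Q and 1164 in w1118, and for complex II, 1089 in MJDtr-78Q and 1271 in w1118. Complex III had 1636 in MJDtr-78Q and 1691 in w1118, complex IV 2553 in MJDtr-78Q and 2758 in w1118, and complex V 2917 in MJDtr-78Q and 3097 in w1118. The nuclear complexes thus kept one order, from complex I to complex V, in both genotypes. The median of the mitochondrial genes stood above them at 6600 in MJDtr-78Q and 6221 in w1118. Not all did, since the 5 tested mitochondrial genes of complex I had a median of 2278 in MJDtr-78Q and 2584 in w1118. That is below nuclear complexes IV and V. Mitochondrial genes of the plus strand had 12300 in MJDtr-78Q and 11831 in w1118 (7 genes), and those of the minus strand 2880 in MJDtr-78Q and 3076 in w1118 (3 genes). Exonic length exceeded the deposited gene span for 9 tested members, and capping it there altered only complex I (1074 in MJDtr-78Q and 1181 in w1118) and complex II (1161 in MJDtr-78Q and 1330 in w1118).

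**Figure D4:**
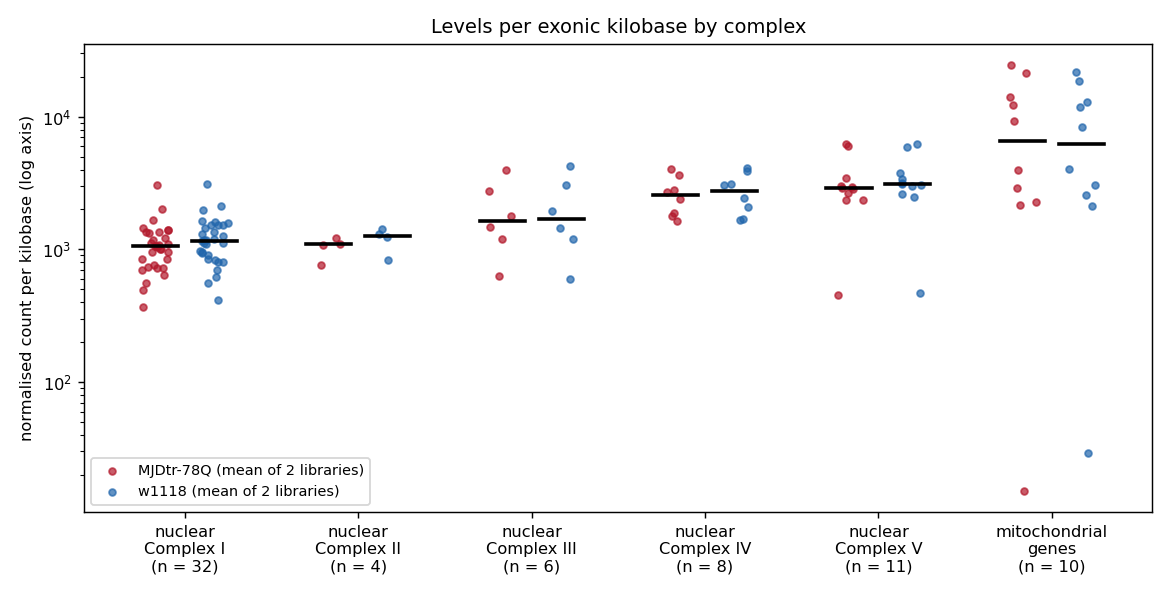
Mean level per kilobase of exon for each tested subunit gene (vertical axis, normalised count per kilobase, log axis) by complex and genotype, with the median as a black bar. Medians climb from complex I to complex V and the mitochondrial genes, and the genotypes overlap throughout.

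Together the members made up 3.64% and 5.29% of the back-transformed deposited total in MJDtr-78Q libraries and 4.04% and 4.88% in w1118 libraries. Nuclear subunits gave 1.90% and 3.03% in MJDtr-78Q libraries and 2.33% and 2.90% in w1118 libraries. Mitochondrial genes gave 1.73% and 2.25% in MJDtr-78Q libraries and 1.69% and 1.96% in w1118 libraries. The w1118 libraries lay within the range of the MJDtr-78Q libraries for the whole set and for the nuclear genes, while for the mitochondrial genes w1118 library 1 had the lowest share.

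The signed gap between libraries of a genotype, library 2 minus library 1, went with exonic length. Members are short, with a median exonic length of 871 bases against 2163 for all tested genes. Across the 73 members, which share their libraries and are not independent replicates, the Spearman correlation of length with the gap between libraries was -0.59 in MJDtr-78Q and -0.63 in w1118. Across all 8641 tested genes with a length it was -0.75 in MJDtr-78Q and -0.63 in w1118. The 25 shortest members (354 to 762 bases) had a median gap of 1.14 in MJDtr-78Q and 0.49 in w1118, and the 24 longest (1129 to 3817 bases) of 0.54 in MJDtr-78Q and 0.27 in w1118. The difference between genotypes had a correlation with length of 0.10 over the members and 0.28 over all tested genes.

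**Figure D5:**
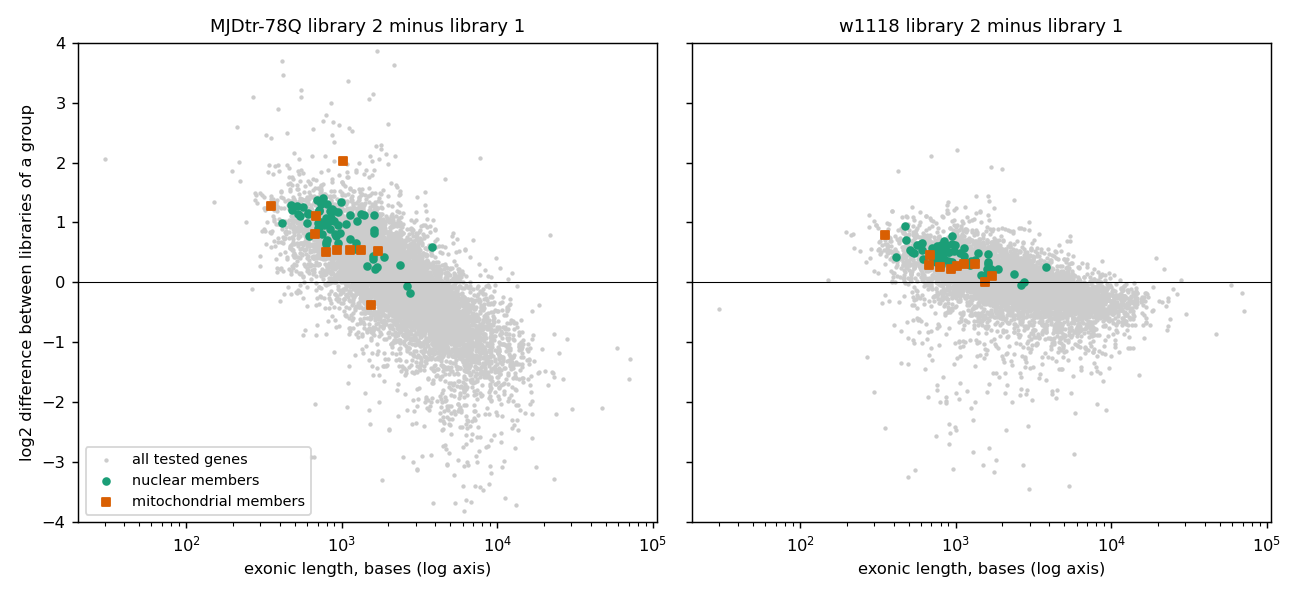
Library 2 minus library 1 within MJDtr-78Q (left) and w1118 (right) on the log2 scale, against exonic length in bases (log axis), for all tested genes with a length (grey) and for nuclear and mitochondrial members (colour). Members sit among the short genes, where the gap is above 0, and 30 grey points lie outside the axis limits.

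With the trend on length removed from each library, the median gap of the members was 0.19 in MJDtr-78Q and 0.17 in w1118, and their median difference was -0.11. The complexes then had medians of -0.16 (I), -0.17 (II), -0.01 (III), -0.01 (IV) and -0.05 (V), and the mitochondrial genes 0.11. Still 0 members passed, while 6 of all 8641 genes did. Groups without overlap numbered 15 lower and 5 higher among the members, against 22.1% and 19.5% of all genes. The 5 higher ones were mt:Cyt-b, mt:CoIII, mt:ATPase6, ND-B14 and COX7B, and the 15 lower ones included mt:ND2, ND-51, ND-49, ND-75, SdhA, SdhB and SdhC. The 5 and these lower ones are named after their values were seen, and their limma adjusted p-values on this scale were between 0.468 and 0.931.

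Of the 23 paralogues, 22 stayed under the filter, and their highest deposited level was 2.16 in MJDtr-78Q libraries and 4.31 in w1118 libraries. The w1118 value belongs to ATPsynepsilonL, at 1 and 1 in MJDtr-78Q libraries and 1.95 and 4.31 in w1118 libraries. The 9 members listed at 0 in all 4 libraries were all paralogues. A listed 0 is not taken as absence, since PolG2, mtTFB1 and Coq4, which serve mitochondria in general, were also listed at 0 in all 4 libraries. Many such gene copies are known for expression in the testis. Of 9 testis marker genes in these head libraries 0 passed the filter and 5 were listed at 0 in every library. Why the paralogues were low was not tested. The tested paralogue was COX7AL2, at 7.94 and 9.11 in MJDtr-78Q libraries and 8.27 and 9.05 in w1118 libraries, a difference of -0.14 (SE 0.50) with overlapping groups. How the counting treated reads that match a paralogue and its parent gene is not given in the sources used here.

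Among other genes of the pathway 0 passed in each list. Subunit genes with other symbols (7 tested) had a median of -0.10 with 2 above 0. Their lowest unadjusted p belonged to RFeSP, the Rieske iron-sulfur protein of complex III, at 10.37 and 11.39 in MJDtr-78Q libraries and 11.20 and 11.61 in w1118 libraries, a difference of -0.53 (SE 0.41). Assembly factors (10 tested, with Sdhaf3 the lowest in p) had a median of -0.12 with 1 above 0. Genes that maintain and express mitochondrial DNA (9 tested) had a median of -0.06 with 3 above 0. Among them PolrMT, the mitochondrial RNA polymerase, was at 7.42 and 7.17 in MJDtr-78Q libraries and 7.59 and 7.67 in w1118 libraries, a difference of -0.34 (SE 0.23) without overlap. The nuclear regulators (4 tested) had a median of -0.10, all below 0. Ets97D, a transcription factor linked to mitochondrial genes in flies, was at 5.48 and 5.06 in MJDtr-78Q libraries and 5.46 and 5.42 in w1118 libraries, a difference of -0.17 (SE 0.30).

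The TCA cycle genes (13 tested) had a median of -0.11 with 4 above 0. Idh3b, a subunit of NAD-dependent isocitrate dehydrogenase, was at 10.50 and 10.59 in MJDtr-78Q libraries and 10.20 and 10.30 in w1118 libraries, a difference of 0.30 (SE 0.22) without overlap. Membrane carriers (8 tested) had a median of -0.12 with 2 above 0. Mpcp2, a phosphate carrier that supplies the ATP synthase, was at 12.66 and 12.79 in MJDtr-78Q libraries and 13.21 and 13.30 in w1118 libraries, a difference of -0.53 (SE 0.21, limma adjusted p 0.852). Its groups did not overlap, and its libraries lay closer together than those of most subunit genes. Mpcp1, in the same list, went the other way. It had a difference of 0.26 (SE 0.24), with both MJDtr-78Q libraries above both w1118 libraries. The ubiquinone synthesis genes (8 tested) had a median of -0.28 with 1 above 0. That gene was qless, which makes the side chain of ubiquinone, at 8.75 and 8.31 in MJDtr-78Q libraries and 7.94 and 7.46 in w1118 libraries. Its difference was 0.83 (SE 0.30, limma adjusted p 0.815), and both MJDtr-78Q libraries were above both w1118 libraries. With the replicate block alone, the limma adjusted p of qless was 0.0785. With length correction and the replicate block together it was 0.0144, in a setting where more of all tested genes passed than with the block alone. The ribosomal RNA mt:lrRNA was at 14.46 and 15.18 in MJDtr-78Q libraries and 14.17 and 14.54 in w1118 libraries, a difference of 0.47 (SE 0.32) with overlapping groups.

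Cell type markers were compared as summed normalised counts. These sums are not corrected for exonic length. The 6 neuronal markers were all tested and summed to 16594 and 7822 in MJDtr-78Q libraries and 11690 and 8738 in w1118 libraries. They are long, at 4072 to 13371 exonic bases. Their median gap between MJDtr-78Q libraries was -1.12, opposite in sign to that of the members. After length correction their differences ran from -0.08 (nSyb) to 0.19 (Rdl). The 7 photoreceptor markers in the table summed to 76678 and 64989 in MJDtr-78Q libraries and 126573 and 125969 in w1118 libraries. Of these, 5 of 7 were lower without overlap, against 15.5% of all tested genes. Their median difference was -1.15 and none was at 0. The 9 muscle markers in the table summed to 72403 and 42315 in MJDtr-78Q libraries and 38344 and 32986 in w1118 libraries. Of the tested ones, 8 of 8 were above 0, and none of the 9 was at 0 in every library. Higher without overlap were 4 of the 8, against 14% of all tested genes. Mhc, with 9058 exonic bases, had a gap of -1.76 between MJDtr-78Q libraries. Glial, fat body and hemocyte markers had median differences of 0.15, -0.10 and 0.47. After the joint quantile normalisation, no marker passed in the fit without a block or length correction. With length correction and no block, the photoreceptor marker trpl had an unadjusted limma p of 4.1e-06. With the replicate number as a block 5 of the 7 photoreceptor markers and 2 of the 8 tested muscle markers did (limma adjusted p). The background with the block was 4.28% of all tested genes. None of the tested neuronal, glial, fat body and hemocyte markers passed with it. The part of these cell types in the levels of the respiratory genes was not tested.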

How the data were processed

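Per the labels' protocols, poly(A) RNA of heads was turned into stranded libraries. Tools named in the submitters' processing notes, with no roles, are HTSeq 0.6.1, TopHat2 2.0.10, Bowtie, cutadapt 1.2.1 and CASAVA 1.8.2. Neither the genome build nor the strand setting of the counting is given in the sources used here. The authors deposited log2 values of counts with 1 added. As read from the values, they were quantile normalised within each genotype and not between genotypes, so the 4 libraries were quantile normalised together. Whole reads could not be recovered, so counting error per gene is unknown. Starts in the deposited table count from 0, judged by 10 of 13 mitochondrial coding genes, and are printed from 1.

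Gene IDs were given symbols through a reference table (15002 matched, 680 did not), and exonic lengths from an Ensembl annotation by ID, with none of its coordinates. Genes with a mean of at least 10 back-transformed counts were tested in R 4.3.3 with limma 3.58.1 (intensity trend, two-sided, Benjamini-Hochberg over all tested genes, threshold 0.05). The members and lists were chosen with earlier results of these data known. Values per library are given for the mitochondrial genes, core or well-known subunits of each complex, the highest and lowest difference per complex, the 5 lowest p, and the lowest p of each pathway list. The named genes Cyt-c-p, Cox15, bsf, Fum1 and muc had no match. Alternatives were other scalings, pseudocounts of 0.5 and 5, no filter or a mean of 50, other variance models, the replicate number as a block, removal of a loess fit on log2 exonic length (span 0.5), each library left out, and, added after seeing the data, capped lengths. The steps were also run on simulated counts with known changes, and the outcome is not reported here or used as support.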

Additional observations from a re-analysis of the deposited data

How the results depend on the processing

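Values here are relative to the median of all tested genes in each setting. Of 12 settings with all libraries, the deposited scaling alone gave calls among the members, 62 (6742 of all genes), since it lies lower in MJDtr-78Q by a median of -1.23 over all tested genes (upper-quartile scaling by -0.16). With the replicate block 387 of all genes and 0 members passed. The length correction gave 6 of all genes, and with the replicate block 657, with 0 members in either. Among the named genes qless passed in the length correction with the block (adjusted p 0.0144), and its limma adjusted p ranged over 0.0785 to 1 in the others. Leaving out 1 library gave 0 to 3 of all genes and 0 members. Same-numbered libraries deviated together (correlation 0.54 over all tested genes, 0.33 after length correction and 0.77 over the members), but with 2 pairs and no label for the number, they share only a number. The block leaves medians as they were.

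Members without overlap and higher numbered 1 under TMM (15.1% of all tested genes in that setting), 5 with length correction (19.5%) and 0 to 50 with a library left out, the 50 without MJDtr-78Q library 1 (36.1%). Those lower numbered 73 on the deposited scale (89.9%), 9 under upper-quartile scaling (29.1%), 1 with a mean of 50 (15.1%), 15 with length correction (22.1%) and 3 to 70 with a library left out, the 70 without MJDtr-78Q library 2 (45.9%) and 21 without w1118 library 1 (30.1%). The mitochondrial minus nuclear difference ranged over 0.078 to 0.43 with a library left out and 0.24 to 0.31 otherwise. The cause of these shifts was not tested.

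Signs turned at small values. With length correction, with and without the block, mt:ND1 was 0.0092, mt:ND3 0.14, mt:ND4 0.047, COX5A 0.024, COX6B 0.081 and ATPsyngamma 0.021. With deposited, TMM and upper-quartile scaling mt:ND3 was 0.016, 0.026 and 0.025, mt:ND4 was 0.038, 0.050 and 0.049, and ATPsynbeta was 0.077, 0.089 and 0.088. ATPsynbeta was 0.0032 with no filter.

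With a library left out, 33 of 45 named genes changed sign, with these lowest and highest values. The range was, for mt:ND1, -0.36 to 0.17, mt:ND3 -0.66 to 0.59, mt:ND4 -0.27 to 0.23, mt:ND5 -0.43 to 0.066, mt:Cyt-b -0.18 to 0.31, mt:CoII -0.51 to 0.57, mt:CoIII -0.061 to 0.44, mt:ATPase6 -0.27 to 0.51, ND-75 -0.072 to 0.013, ND-49 -0.37 to 0.042 and ND-24 -0.71 to 0.24. For ND-23 it was -0.76 to 0.23, ND-20 -0.88 to 0.25, SdhB -0.48 to 0.050, SdhC -0.68 to 0.11, SdhD -0.83 to 0.34, UQCR-C2 -0.21 to 0.025, UQCR-14 -0.74 to 0.40, COX4 -0.47 to 0.16, COX5A -0.40 to 0.22, COX5B -0.41 to 0.53 and COX6B -0.36 to 0.29. For ATPsynbeta it was -0.16 to 0.12, ATPsyngamma -0.17 to 0.080, ATPsynO -0.48 to 0.20, ATPsynC -0.12 to 0.26, ND-B14 -0.42 to 0.70, COX7A -0.997 to 0.37, ATPsynE -0.90 to 0.29, ND-15 -1.01 to 0.090, ND-B14.7 -1.03 to 0.15, COX7AL2 -0.68 to 0.45 and Ets97D -0.37 to 0.072.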
